A study of Papio anubis with 12 samples.

Results

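miR-132 and miR-212 are a pair of microRNAs (miRNAs) made from neighbouring hairpins of a single primary transcript. All mature miRNAs listed under the human precursors hsa-mir-132 and hsa-mir-212 were taken, which gave 4 of the 1921 mature names in the deposited table: miR-132-3p (MIMAT0000426), miR-132-5p (MIMAT0004594), miR-212-3p (MIMAT0000269) and miR-212-5p (MIMAT0022695). All 4 had a single entry in the table, were read in every library, and were among the 481 names with a mean of at least 1 read per 1000000 counted reads (RPM) that entered the test.

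In rodent neurons, synaptic activity and the growth factor BDNF switch on the shared transcript through the transcription factor CREB. Each hairpin is cut by Drosha and Dicer into an arm from its 5′ side (5p) and one from its 3′ side (3p), either of which can be loaded into Argonaute to repress messenger RNAs. Both 3p arms carry the same seed, the stretch that chooses targets. In rodent neurons miR-132-3p is known to repress the GTPase-activating protein p250GAP, which ties the pair to dendrite growth and spine formation.

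The libraries came from frontal cortex taken from fetal baboons (Papio anubis) on day 165 of gestation, 1 library per fetus. In the maternal nutrient restricted (MNR) group the mother was given 70% of what control mothers ate per kilogram of body weight, and control mothers of the other group ate freely from the same biscuit diet. The labels number no fetus, so replicate numbers here follow the order of the samples within a diet and only name a fetus; replicates 1 to 3 of each diet were females and replicates 4 to 6 males. The labels name no mother or sequencing batch, so a shared mother or batch was not tested.

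The libraries held 1078720 to 1464660 counted reads in MNR fetuses and 513029 to 1898763 in controls, so that 1 read was worth 0.527 to 1.95 RPM. These totals are sums over all entries, which repeat the reads of miRNAs with several precursors. With 1 entry kept per name, 55.7 to 61.5% of a library's sum remained. Markers of neural tissue were abundant, with miR-9-5p, miR-124-3p, miR-128 and miR-137 together at 95551 to 120679 RPM in MNR and 86818 to 113268 RPM in controls. The HOX-linked miR-196b-5p, miR-10a-5p and miR-10b-5p, which mark hindbrain and spinal cord, summed to 426 to 2205 RPM in MNR and 699 to 7729 RPM in controls, with the highest sum in control replicate 6, the shallowest library. The miRNAs were measured in whole tissue, where fewer cells of a type and less RNA per cell cannot be told apart.

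miR-132-3p, the main product of its hairpin, was by far the most abundant of the 4. It ranged from 1062 RPM through a median of 1399 RPM to 2725 RPM in MNR fetuses, and from 672 RPM through a median of 1046 RPM to 1632 RPM in controls. In each library it ranked between place 40 and place 79 among all mature names. The highest level of all belonged to the male MNR replicate 4 and the lowest to the male control replicate 4, and the diets overlapped. On average it stood at 1573 ± 618 RPM in MNR and 1108 ± 333 RPM in controls (SD, n = 6 each).

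The limma test over all 481 names gave miR-132-3p a log2 difference, MNR minus control, of 0.48 ± 0.23 (SE) on log2(RPM + 1). Its 95% interval ran from 0.00024 to 0.96. The adjusted p (Benjamini-Hochberg) was 0.226, so the difference did not pass the threshold of 0.05, and 108 names had a larger one. Most names were higher in MNR in RPM, with a median log2 difference of 0.23 over all names. miR-132-3p lay 0.25 above that median. Its difference was 0.31 without MNR replicate 4, and 0.26 when the libraries were scaled by median ratios.

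miR-132-5p, the lesser arm of the same hairpin, stood at 108, 107 and 195 RPM in MNR females and at 230, 153 and 100 RPM in MNR males. It stood at 144, 128 and 125 RPM in control females and at 51.2, 119 and 109 RPM in control males. MNR replicates 3, 4 and 5 lay above every control, while the other 3 MNR fetuses lay among the controls. The log2 difference was 0.39 ± 0.26 (SE; limma adjusted p = 0.381), with a 95% interval from -0.15 to 0.93. Without control replicate 4, the lowest fetus, it was 0.18, and on recovered whole reads DESeq2 gave 0.14.

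miR-212-3p shares its seed with miR-132-3p and was about as abundant as miR-132-5p. It had 137, 88.5 and 129 RPM in MNR females and 227, 118 and 95.3 RPM in MNR males, against 125, 126 and 194 RPM in control females and 83.3, 132.5 and 138 RPM in control males. MNR replicate 4 was again the highest fetus and control replicate 4 the lowest, and the rest of the fetuses were intermixed. The means were 133 ± 50.04 RPM in MNR and 133 ± 35.5 RPM in controls (SD, n = 6 each). The log2 difference was -0.038 ± 0.23 (SE; limma adjusted p = 0.949), and its 95% interval of -0.51 to 0.44 leaves room for changes of either sign. It lay 0.27 below the median of all names.

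miR-212-5p was the scarcest of the 4. It reached 64.2, 61.9 and 78.5 RPM in MNR females and 162, 75.1 and 56.5 RPM in MNR males, against 61.6, 71.3 and 98.5 RPM in control females and 47.6, 69.6 and 121 RPM in control males. These rest on 70 to 175 reads per MNR library and 40 to 187 per control library. Apart from MNR replicate 4, every MNR fetus lay within the range of the controls. The log2 difference was 0.052 ± 0.26 (SE; limma adjusted p = 0.932; 95% interval -0.49 to 0.60), and it was -0.17 under median-ratio scaling.

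**Figure D1:**
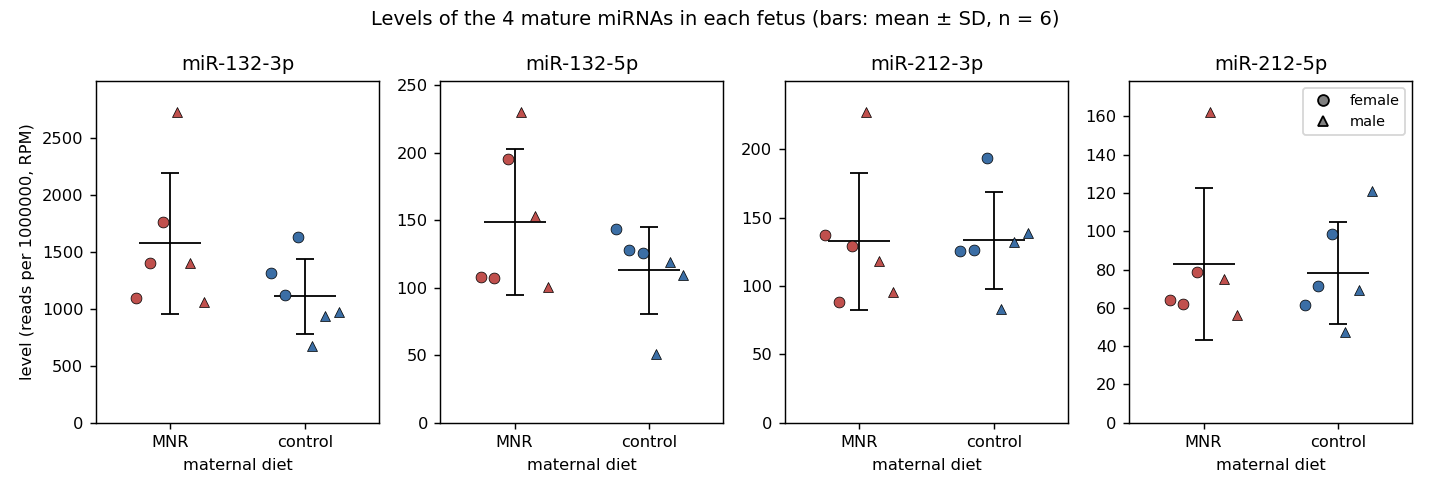
Level in RPM (y axis) of each of the 4 mature miRNAs in every fetus, with MNR left of control; circles are females, triangles males, points run in replicate order and bars give mean ± SD (n = 6). MNR replicate 4, a male, is the highest fetus in all panels, at 2725 RPM for miR-132-3p and 227 RPM for miR-212-3p, and the diets overlap in each panel.

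So 0 of the 4 arms passed the diet test at an adjusted p under 0.05, where 13 of all 481 names (2.70%) passed. By its unadjusted limma p of 0.0499, from the model fitted across all names, miR-132-3p was the 1 of the 4 under 0.05, beside 105 of all 481 names (21.8%), so 1 of 4 is close to the background. On recovered reads edgeR, DESeq2 and voom called 0 of the 4. Each of them also called fewer of all 481 names than the 13 of the main fit, so 0 of 4 says little about the arms. None of the 4 separated the diets without overlap, which 3.33% of all names did. The authors' deposited table gives values, taken as unadjusted p-values, of 0.135 for miR-132-3p, 0.190 for miR-132-5p, 0.977 for miR-212-3p and 0.809 for miR-212-5p over all fetuses.

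Split by sex, all 4 arms had a higher diet difference in males than in females, and the male differences were largest for both arms of miR-132. The share of all names with a higher difference in males was not counted, so this count has no background beside it. The arms come from 1 transcript and the same fetuses and are not separate results. Without MNR replicate 4 the female minus male diet difference of miR-212-5p was 0.021, the other way. In males miR-132-3p stood at 2725, 1400 and 1062 RPM in MNR and 672, 937 and 973 RPM in controls, so that each MNR male lay above each control male; it was the 1 of the 4 arms to separate the diets in males, and 19.3% of all names had every MNR male above every control male. In females it stood at 1097, 1398 and 1758 RPM in MNR and 1312, 1120 and 1632 RPM in controls, and the diets overlapped, as they did for the other 3 arms; 14.8% of all names had every MNR female above every control female. The log2 difference was 0.91 ± 0.30 in males (SE; limma adjusted p = 0.170) and 0.056 ± 0.30 in females (adjusted p = 0.966), from 1 fit of the 4 sex by diet groups of 3. For miR-132-5p it was 0.79 ± 0.35 in males (adjusted p = 0.278) and -0.011 ± 0.35 in females (adjusted p = 0.993).

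None of the 4 arms passed in males, where 1.66% of all names did, or in females, where 0% did. At an unadjusted limma p under 0.05 there were 2 of the 4 in males, both arms of miR-132, where 16.4% of all names were under it, and 0 of the 4 in females, where 10.2% were. The authors' deposited male values, taken as unadjusted p-values, were 0.168 for miR-132-3p, 0.192 for miR-132-5p, 0.551 for miR-212-3p and 0.659 for miR-212-5p. Their female values were 0.809, 0.892, 0.328 and 0.506 in the same order, so none was under 0.05 in either sex. The difference between the sexes was tested directly: female minus male, the diet difference of miR-132-3p was lower by 0.85 on the log2 scale, with a 95% interval from -1.74 to 0.038 (limma adjusted p = 0.913). No arm had an unadjusted p under 0.05 for this difference, which 4.99% of all names had, and 0% passed after adjustment. Under median-ratio scaling the male differences of miR-132-3p and miR-132-5p were 0.65 and 0.54. In RPM, miR-132-3p had a male difference of 0.52 without MNR replicate 4, and miR-132-5p had 0.50 without it and 0.41 without control replicate 4. Both arms of miR-212 had smaller male differences, 0.25 for miR-212-3p (adjusted p = 0.763) and 0.26 for miR-212-5p (adjusted p = 0.774), and without MNR replicate 4 these were -0.12 and -0.18. In females their differences were -0.32 (adjusted p = 0.797) and -0.15 (adjusted p = 0.933). Between females and males of both diets together the 4 arms differed by -0.17 (miR-212-5p) to 0.23 (miR-132-3p) on the log2 scale, with a limma adjusted p of 0.987 for each.

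**Figure D2:**
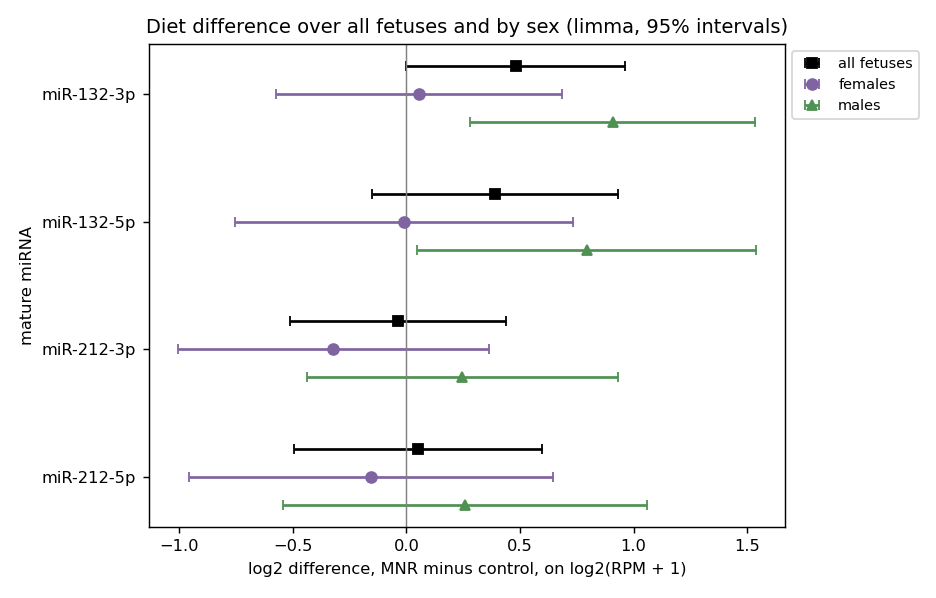
Log2 difference between diets, MNR minus control, on log2(RPM + 1) (x axis) for each arm, over all fetuses (squares) and within females (circles) and males (triangles), with 95% intervals from limma. The male estimates for miR-132-3p (0.91) and miR-132-5p (0.79) lie to the right of the female ones (0.056 and -0.011), with intervals that overlap.

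MNR replicate 4, the fetus with the highest level of each arm, had the highest sum of 2 of the 6 lists of cell type markers. The vessel miRNAs miR-126-3p, miR-143-3p and miR-145-5p summed to 37737 RPM in it, the highest of all 12 fetuses, within ranges of 12463 to 37737 RPM in MNR and 20418 to 31095 RPM in controls. The 4 leukocyte and microglia miRNAs (miR-223-3p, miR-142-3p, miR-142-5p and miR-150-5p) summed to 327 RPM in it, also the highest, within 158 to 327 RPM in MNR and 140 to 214 RPM in controls. Single markers did not all follow: miR-143-3p, which makes up most of the vessel sum, was at 35711 RPM in it and reached 35901 RPM in another MNR fetus, and miR-145-5p, miR-223-3p and miR-142-3p were also higher in another MNR fetus. By summed level MNR replicate 4 took place 2 of 12 for the oligodendrocyte markers, 4 for the erythroid, 7 for the HOX-linked and 11 for the neural ones. None of the 7 vessel and leukocyte markers was at 0 in any fetus.

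Of the 3 erythroid markers, miR-451a alone passed the diet test. miR-451a, the main miRNA of red blood cells, rose to 547 ± 113.0 RPM in MNR, against 244 ± 81.5 RPM in controls (SD, n = 6 each), a log2 difference of 1.20 ± 0.21 (SE; limma adjusted p = 0.0093). Its values did not overlap, with 381 RPM as the lowest in MNR and 359 RPM as the highest in controls. The other 2 erythroid markers had differences of 0.64 for miR-144-3p (adjusted p = 0.216) and 0.35 for miR-486-5p (adjusted p = 0.268). The 3 together summed to 3101 to 5688 RPM in MNR and 2151 to 3901 RPM in controls, and 1 of the 3 passed where 2.70% of all names did. The HOX-linked miR-10a-5p and miR-10b-5p were lower in MNR, with differences of -2.68 (limma adjusted p = 0.0623) and -1.22 (limma adjusted p = 0.143). Neither passed, and miR-196b-5p was too low to enter the test. The part of blood, vessel or immune cells, or of the region sampled, in the diet differences of the pair, or in that of miR-134 given with the activity-regulated list, was not tested.

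Because both hairpins come from 1 transcript, the ratio of their products within a library was compared between diets; a ratio cancels the scaling of a library. One fetus gave 1 value, and an exact permutation test, two-sided, was run on each of 5 ratios over the 924 ways to split 12 fetuses into 6 and 6. The ratio of miR-132-3p to miR-212-3p was higher in most MNR fetuses. It was 7.99, 15.8 and 13.6 in MNR females and 11.996, 11.9 and 11.1 in MNR males, against 10.5, 8.86 and 8.42 in control females and 8.07, 7.08 and 7.03 in control males. Of the 6 MNR fetuses 5 lay above every control, and MNR replicate 1 lay below the control median of 8.25.

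MNR fetuses averaged a ratio of 12.1 ± 2.61 and control fetuses 8.32 ± 1.28 (SD, n = 6 each). The log2 difference was 0.52 ± 0.16 (SE), a 1.43-fold higher ratio in MNR, with an interval from 1.12 to 1.82 by inversion of the permutation test at 95%. The exact permutation p was 0.0130, and 0.0595 after Benjamini-Hochberg adjustment over the 5 ratios, so it did not pass the threshold. It passed without MNR replicate 1 (log2 difference 0.63, exact permutation test, adjusted p = 0.0216) and without control replicate 1 (0.59, adjusted p = 0.0271). These 2 fetuses had the lowest MNR ratio and the highest control ratio, so leaving out either raises the difference. The other 10 fits that left out 1 fetus did not pass (exact permutation test, adjusted p up to 0.0866). Without MNR replicate 4 the log2 difference was 0.52, and without control replicate 6 it was 0.47.

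The summed arms of the miR-132 hairpin over those of the miR-212 hairpin gave 8.11 ± 1.44 in MNR and 5.84 ± 1.21 in controls (SD, n = 6 each; log2 difference 0.48, exact permutation p = 0.0238, adjusted p = 0.0595). This ratio is not a separate measurement, since miR-132-3p made up 81.1% of the reads of the 4 arms in MNR and 77.1% in controls. The scarcer 5p arms gave a ratio of miR-132-5p to miR-212-5p of 1.42 to 2.49 in MNR and 0.903 to 2.33 in controls. Here the diets overlapped over most of their range (log2 difference 0.34 ± 0.24, SE; exact permutation p = 0.186, adjusted p = 0.310), and the interval of the fold, 0.872 to 1.87, holds both no change and the fold of the 3p arms.

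Within sexes the ratio of the 3p arms was 11.7 ± 0.456 in MNR males and 7.39 ± 0.589 in control males (SD, n = 3 each), with no overlap. It was 12.5 ± 4.03 in MNR females and 9.25 ± 1.08 in control females, with overlap. With 3 fetuses against 3 an exact permutation test cannot go below 0.1, which was the p in males, while in females it was 0.4. The log2 difference in females minus that in males was -0.28 (exact permutation of sex labels within each diet, p = 0.44, adjusted p = 0.733).

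The balance between the 2 arms in reads differed between the hairpins. Loading of the arms into Argonaute was not measured, and an effect of library preparation on the arm shares was not tested. In the miR-132 hairpin the 5p arm made up 8.71 ± 1.13% of reads in MNR and 9.28 ± 1.76% in controls; in the miR-212 hairpin it made up 38.1 ± 3.53% in MNR and 36.7 ± 5.04% in controls (SD, n = 6 each). The miR-212 hairpin gave a more even pair of arms than the miR-132 hairpin in every fetus, with a lowest 5p share of 31.9% against a highest of 11.3%. The diets overlapped for both. The ratio of 5p to 3p differed by -0.088 on the log2 scale for the miR-132 hairpin (exact permutation p = 0.556, adjusted p = 0.576; fold interval 0.738 to 1.20) and by 0.090 for the miR-212 hairpin (p = 0.576, adjusted p = 0.576; 0.819 to 1.31).

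**Figure D3:**
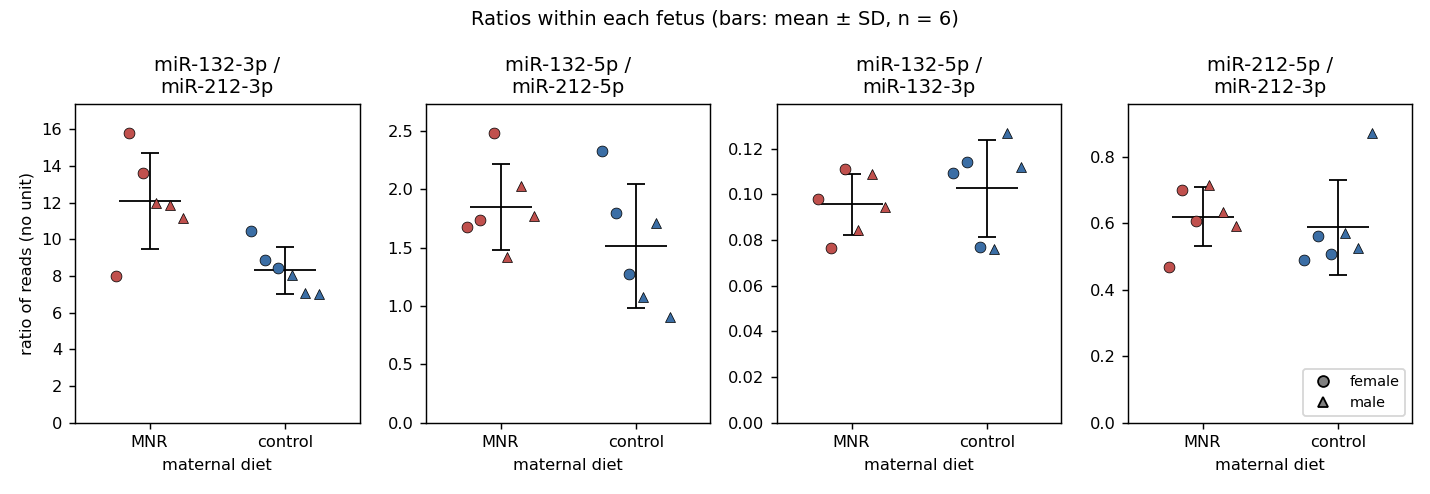
Ratios of reads within each fetus (y axis, no unit), MNR left of control; circles are females, triangles males, points run in replicate order and bars give mean ± SD (n = 6). For miR-132-3p over miR-212-3p, 5 of 6 MNR fetuses lie above the highest control (10.5), and the other 3 ratios overlap widely.

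Counting error was a limited part of the spread of the 3p ratio. Within diets its log2 values had an SD of 0.28, and reads alone would give 0.13, or 21.2% of the variance. For the 5p to 3p ratio of the miR-212 hairpin, reads alone would give 55.7% of it. Exact 95% intervals for single fetuses, which cover counting error only, ran from 6.81 to 9.42 in MNR replicate 1 and from 13.1 to 19.3 in MNR replicate 2.

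Ratios of other neighbouring miRNA pairs, listed for comparison, also had unequal means in the 2 diets. The log2 difference, MNR minus control, was -0.57 for miR-143-3p over miR-145-5p, -0.36 for miR-191-5p over miR-425-5p and -0.46 for miR-23b-3p over miR-27b-3p. It was -0.67 for miR-99b-5p over let-7e-5p and 0.55 for miR-451a over miR-144-3p. The 0.52 of miR-132-3p over miR-212-3p lies among their sizes. Within diets these 5 ratios had SDs of 0.31 to 0.38 on the log2 scale, against 0.28 for the 3p arms of miR-132 and miR-212. No test was run on these pairs.

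The levels of the arms were compared across fetuses in 3 relations on log2(RPM + 1). Across 12 fetuses miR-132-3p and miR-132-5p had a Pearson r of 0.88 (permutation p = 0.00048, adjusted p = 0.00096) and a Spearman rho of 0.76 (permutation p = 0.00557, adjusted p = 0.00835). miR-212-3p and miR-212-5p had an r of 0.85 (permutation p = 0.00064, adjusted p = 0.00096) and a rho of 0.82 (permutation p = 0.00197, adjusted p = 0.00591). Without MNR replicate 4 and control replicate 4, the fetuses farthest from the median, r was 0.68 and 0.65 for these pairs of arms. Within MNR and within controls it was 0.91 and 0.81 for the arms of miR-132, and 0.92 and 0.77 for those of miR-212.

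Between the hairpins, miR-132-3p and miR-212-3p had an r of 0.69 (permutation p = 0.0146, adjusted p = 0.0146) but a rho of 0.36 (permutation p = 0.257, adjusted p = 0.257). Without MNR replicate 4 and control replicate 4 r was 0.17 (permutation p = 0.637), so this relation rests on those 2 fetuses. Without MNR replicate 4 alone r was 0.46 (permutation, adjusted p = 0.152) and without control replicate 4 alone 0.59 (adjusted p = 0.0636). Within diets r was 0.78 in MNR (exact permutation p = 0.0722) and 0.87 in controls (exact permutation p = 0.0611). The within-diet rho was 0.54 in MNR (exact permutation p = 0.297) and 0.49 in controls (exact permutation p = 0.356). Each diet still holds 1 of those 2 fetuses, so these values were not free of them. Whether the correlations differ from each other was not tested.

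**Figure D4:**
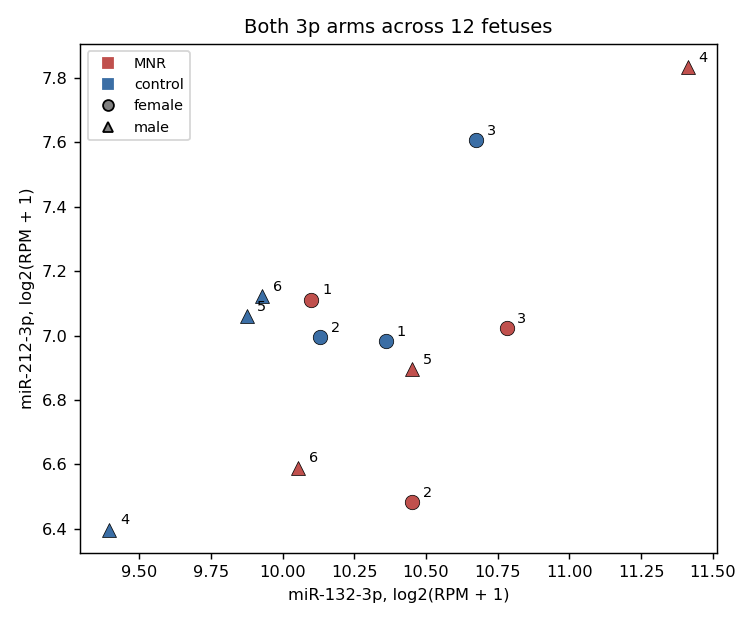
Level of miR-212-3p against that of miR-132-3p, both as log2(RPM + 1), in each fetus, with the replicate number beside each point; red is MNR, blue control, circles females and triangles males. The 2 extreme points are MNR replicate 4 at the top right and control replicate 4 at the bottom left, and without them r is 0.17.

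By likeness of level across the 12 fetuses, given as a description, the closest of the 480 other tested names to miR-132-3p was its own 5p arm. miR-136-5p (r = 0.87), miR-660-5p (0.86), miR-133a (0.84), miR-432-5p (0.83) and miR-127-5p (0.82) came next, and miR-212-3p took place 32. For miR-212-3p its own 5p arm was first, followed by miR-100-3p (0.81), miR-660-5p (0.80), miR-889 (0.79), miR-29a-3p (0.77) and miR-378a-5p (0.76), and miR-132-3p took place 16. The mean of miR-100-3p was only 1.42 RPM, near the 1 RPM added before taking logs. All these names share the libraries and the scaling. The places are by Pearson r with MNR replicate 4 and control replicate 4 included, and were not recomputed without them. Spearman rho of the names listed beside the 5p arm ran from 0.69 (miR-133a) to 0.86 (miR-136-5p) with miR-132-3p. With miR-212-3p it ran from 0.54 (miR-660-5p) to 0.77 (miR-378a-5p).

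Of 10 other miRNAs regulated by neuronal activity, all were tested and 1, miR-134, rose in MNR, beside 13 of all 481 names (2.70%) that passed. miR-134, which limits dendritic spine growth in rodent neurons, stood at 167 ± 26.1 RPM in MNR and 96.2 ± 27.97 RPM in controls (SD, n = 6 each), a log2 difference of 0.83 ± 0.19 (SE; limma adjusted p = 0.0436). The 2 most abundant were the neuronal miR-124-3p, at 9432 ± 874 RPM in MNR and 9634 ± 1839 RPM in controls (adjusted p = 0.970), and miR-381 of the imprinted miR-379 to miR-410 cluster, at 1562 ± 181 and 1521 ± 368 RPM in MNR and controls (adjusted p = 0.832). The other 7 were miR-138-5p, miR-184, miR-188-5p, miR-485-5p, miR-329, miR-379-5p and miR-219-5p. miR-134, miR-329, miR-379-5p and miR-485-5p lie in the same cluster as miR-381, so the list members are not independent. Of the 10, 9 had a log2 difference above 0 with a median of 0.30, beside 377 of 481 names and a median of 0.23 overall. miR-134 lost the threshold in 9 of the 12 fits that left out 1 fetus (adjusted p from 0.0157 to 0.104 over the 12) and under median-ratio scaling (0.61, adjusted p = 0.106).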

How the data were processed

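RNA was isolated on Qiagen columns and made into libraries with Illumina's small RNA kit, per the labels' protocols. The authors deposited a level per fetus in RPM, of which each library sums to 1000000, together with a read count pooled over libraries and p-values without adjustment for 3 diet comparisons, per the file headers. No aligner is named in the sources used here. The submitters' processing notes name hg18 with no role, and human names stand for the baboon miRNAs. For each mature name the entry with most reads was kept, which held 55.7 to 61.5% of a library's sum, since miRNAs with several precursors repeat their reads. Whole reads were recovered: each nonzero value was a multiple of 1 read to within 0.0051 RPM. limma (3.58.1, with trend) was fitted to log2(RPM + 1) of 481 names with a mean of at least 1 RPM, with Benjamini-Hochberg adjustment over all of them and a threshold of 0.05; edgeR 4.0.16, DESeq2 1.42.0 and voom on recovered reads were alternatives. The log2 scale with 1 RPM added understates changes of low names. Exact and 100000-resample permutation tests used NumPy 2.4.6 and SciPy 1.17.1, two-sided. Reads carry no molecular identifiers, and the exact intervals for single fetuses cover counting error only. The limma and permutation intervals of the diet differences rest on the spread between fetuses. The tests were tried on simulated data. The members, the lists and the ratios were chosen with earlier results of these data known. The names given are the 4 arms, the activity-regulated list (values for called members and the 2 most abundant), the 5 names most like each 3p arm, 5 neighbouring pairs and the cell type markers. Of the marker lists, the oligodendrocyte one (miR-219-5p and miR-338-3p) summed to 287 to 451 RPM in MNR and 221 to 345 RPM in controls. No sequences or coordinates are given, since the table at hand holds none for the pair.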

Additional observations from a re-analysis of the deposited data

Results flagged for a closer look

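In 4 of the 18 sets of 6 fetuses examined (each arm and each ratio in each diet), 1 fetus stood far from the others, with a gap to the nearest past Dixon's 95% critical value; chance alone does this in about 5% of sets. MNR replicate 4, a male, was the highest of the MNR fetuses for miR-212-5p (162.23 RPM, next 78.5 RPM) and for miR-212-3p (227.12 RPM, next 137 RPM). Control replicate 4, also a male, was the lowest control for miR-132-5p (51.16 RPM, next 109 RPM). Control replicate 6, the shallowest library, had the highest control ratio of miR-212-5p to miR-212-3p (0.873, next 0.571), from 62 and 71 reads.

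The authors' pooled read count holds more reads than the 12 cortex libraries together, so it covers reads of libraries not analysed here. Beyond the 12 libraries it had 4688 reads of miR-132-3p, 358 of miR-132-5p, 533 of miR-212-3p and 329 of miR-212-5p. The cortex libraries held 81.8%, 85.2%, 79.6% and 78.7% of the pooled reads of these arms in the same order. Over all entries they held 16.9%, and the median share of the 481 tested names was 31.6%. For each arm, between 90.9% and 98.1% of the tested names had a lower share. No test was made, since the pooled column has no libraries of its own.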

How the results depend on the processing

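Of 440 recomputed values for the 28 results on the arms and ratios, 403 kept their direction and their side of the threshold, 31 changed sign, 4 came to pass it and 2 no longer did; their causes were not tested. The 403 include values whose direction could not change. Leaving out a male does not move a diet difference within females, and leaving out a female does not move one within males. The filters and the mean over entries also leave the difference of an arm with a single entry as it was. No arm passed the threshold for diet, for diet within a sex or for sex under any alternative run. The diet difference of miR-212-5p turned to -0.17 under median-ratio scaling, -0.15 under TMM, -0.14 with edgeR, -0.16 with DESeq2 and -0.13 with voom, while the median over all names was 0.036 under median ratios and 0.050 under TMM, against 0.23 in RPM. Under median ratios miR-132-3p in females was at -0.13 and miR-212-3p in males at -0.0049. With each fetus left out in turn, the diet difference ran from -0.16 to 0.19 for miR-212-5p and from -0.21 to 0.078 for miR-212-3p. In females it ran from -0.30 to 0.13 for miR-132-5p, -0.11 to 0.23 for miR-132-3p and -0.30 to 0.033 for miR-212-5p. In males it ran from -0.18 to 0.61 for miR-212-5p and -0.12 to 0.50 for miR-212-3p. The female minus male diet difference of miR-212-5p ran from -0.77 to 0.021. The female minus male difference ran from -0.00061 to 0.34 for miR-132-5p, -0.33 to 0.046 for miR-212-5p and -0.079 to 0.23 for miR-212-3p. The log2 difference of miR-132-3p over miR-212-3p ran from 0.44 to 0.63, that of the summed hairpins from 0.39 to 0.57, and r between miR-132-3p and miR-212-3p from 0.46 to 0.79. The adjusted p of the 3p ratio lay between 0.05 and 0.0974 under the other settings, 0.05 being that of permutation within sex, which did not pass. The count of names called for diet, 13, was 6 and 1 with 0.1 and 5 RPM added, 1 with no filter, 3 each under median ratios, TMM, edgeR and voom, 8 with DESeq2, 7 with sex as a covariate and 1 to 26 with a fetus left out. No paired analysis was possible because the labels carry no replicate numbers, and those used here follow sample order and pair nothing. At 40 to 187 control reads per library, depth limits miR-212-5p most.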
